A study of Mus musculus with 9 samples.

Results

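Glycolysis and the response to low oxygen were examined in liver endothelium through 38 listed mouse genes, of the 52636 genes in the deposited count table. The genes were taken by symbol: glucose and lactate transporters, glycolytic enzymes with the glycogen and pyruvate branches next to them, the hypoxia-inducible factor (HIF) subunits, oxygen sensors, and hypoxia-responsive targets. The symbol Aldoa stands for 2 rows of the table, so the 38 symbols match 39 rows. A filter on low counts left 36 of the 38 for testing among 14583 genes in all; Aldoc and Eno2 did not pass it.

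Glycolysis turns glucose into pyruvate, and endothelial cells are known for drawing much of their energy from it and releasing lactate. HIF is a pair of proteins: an oxygen-regulated alpha subunit, encoded by Hif1a or Epas1, and a constant partner. When oxygen is scarce the prolyl hydroxylases (Egln1 and Egln3 encode such enzymes) stop marking the alpha subunit for destruction, and HIF then binds a short core of the hypoxia response element near its target genes, many of which encode glucose transporters and glycolytic enzymes.

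The samples were 5 libraries whose label gives a double knockout of Erg and Fli1, and 4 control libraries labelled wild type, from livers of mice collected 7 days after tamoxifen, which the treatment note gives for all samples. Erg and Fli1 encode ETS transcription factors. An antibody to VE-cadherin was given to the living animal, and live cells lacking CD45 and bearing CD31 and VE-cadherin were then sorted; no label names the driver of deletion, the animals' age or whether each library is 1 animal. The question is how these genes differ in sorted endothelial cells when both factors are targeted.

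Totals ran from 26791371 to 36401682 counts in the libraries labelled knockout and from 31613059 to 34663989 in the controls. Levels are given as CPM, counts relative to a library total scaled by TMM, as mean ± SD over n = 5 libraries labelled knockout and n = 4 control libraries. Erg ranged from 131 to 159 CPM in the libraries labelled knockout, against 297 to 337 CPM in controls, and was lower (log2 fold change -1.12 ± 0.08 SE, edgeR adjusted p = 2.61e-05). Fli1 went against its label: it ranged from 123 to 172 CPM in libraries labelled knockout, against 90.4 to 109 CPM in controls, and was higher (0.56 ± 0.12, adjusted p = 0.00636). Gene-level counts do not show whether a transcript lacks a deleted exon, so the libraries are called by their label throughout. Cdh5 and Pecam1, which encode the sorted proteins, averaged 2158 ± 193 and 1408 ± 164 CPM in libraries labelled knockout, against 2190.3 ± 113 and 1482 ± 97.9 CPM in controls.

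Replicates 2 and 3 of the libraries labelled knockout stood apart from the other 3 on the second principal component of all tested genes, at 53.2 and 26.8 against -46.2 to -11.7. They also had the lowest summed level of 11 endothelial markers, 16195 and 15979 CPM, within a range of 15979 to 23331 CPM in libraries labelled knockout and 24778 to 27254 CPM in controls. That sum rests on abundant markers such as Kdr, at 2861 and 3160 CPM in them, against 4919 to 5338 CPM in the other 3. For 4 of the 11 markers (Pecam1, Tie1, Egfl7 and Lyve1) replicates 2 and 3 were instead the highest of the libraries labelled knockout. Each of the 15 listed genes called over all libraries is therefore also given without those 2. Among markers of other cells, the 9 platelet and megakaryocyte genes summed to 70.8 to 143 CPM in libraries labelled knockout, against 27.9 to 40.7 CPM in controls, and 6 of 8 tested rose. The 9 neutrophil genes summed to 11.1 to 30.2 CPM in libraries labelled knockout, against 1.17 to 6.34 CPM in controls, and 4 of 5 tested rose. Summed levels of hepatocyte, Kupffer cell, stellate cell, cholangiocyte, lymphocyte and erythroid markers overlapped between the groups, and no marker was at 0 in every library. The median log2 fold change of the 17 hepatocyte markers was nevertheless -1.11. The part of these cells in the results below was not tested. In sorted bulk samples, fewer cells of a type and less RNA per cell cannot be told apart.

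Of the 36 genes tested, 12 (33.3%) rose in the libraries labelled knockout, 3 (8.33%) fell and 21 did not pass (edgeR quasi-likelihood test, Benjamini-Hochberg adjusted p under 0.05 over all 14583 genes). Over all genes tested, 14.5% rose and 14.8% fell, 29.3% in either direction. At an unadjusted p under 0.05, 18 of the 36 were higher and 3 lower. DESeq2 called 17 higher and 3 lower (17.5% and 17.1% of all genes, 34.5% together), and limma-voom 10 higher and 3 lower (13.6% and 15.6%, 29.2% together). The median log2 fold change was 0.42 over the 36 genes and 0.01 over all genes tested. For 14 of the 36 (38.9%) the groups did not overlap, against 27% of all genes tested. Leaving out knockout-labelled replicates 2 and 3, 10 of the 36 rose and 5 fell, and the median was 0.15; 14.5% of all genes then rose and 14.9% fell.

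**Figure D1:**
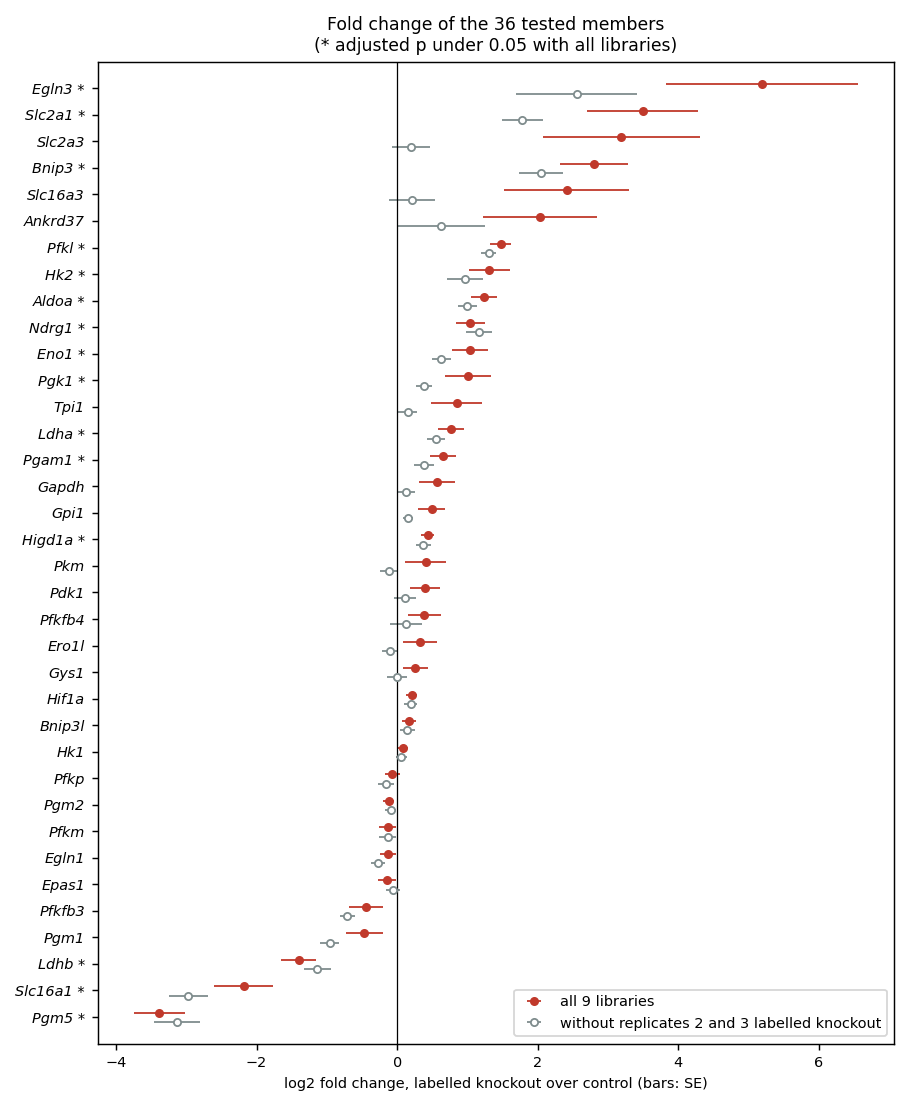
Log2 fold change (libraries labelled knockout over controls) of the 36 tested genes with its SE, for all libraries in red and without knockout-labelled replicates 2 and 3 in open grey; an asterisk marks an adjusted p under 0.05. Egln3 and Slc2a1 lie farthest to the right at 5.20 and 3.50 and move to 2.55 and 1.78 without those replicates, while Pgm5 lies farthest to the left at -3.39 and moves little, to -3.13.

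Promoter sequence was available for 34 of the 38 genes, in 47 windows of 300 bases (250 before and 50 after a RefSeq transcription start, GRCm38.p6). The window nearest to the GENCODE start is shown for the 4 risen genes with the smallest adjusted p whose nearest window holds a HIF core, and for Pgm5, the gene with the largest fall. Aldoa is not shown because its nearest window of 3 holds none. Capitals mark ACGTG or GCGTG, the core of the hypoxia response element, or its reverse complement; the palindrome CACGTG holds ACGTG on both strands, and neighbouring matches may share bases.
Pfkl: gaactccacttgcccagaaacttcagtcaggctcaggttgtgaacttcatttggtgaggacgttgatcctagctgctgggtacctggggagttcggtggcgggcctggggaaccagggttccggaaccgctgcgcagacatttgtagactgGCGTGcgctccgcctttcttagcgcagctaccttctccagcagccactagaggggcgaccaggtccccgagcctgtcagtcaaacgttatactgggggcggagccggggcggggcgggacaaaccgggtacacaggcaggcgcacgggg
Bnip3: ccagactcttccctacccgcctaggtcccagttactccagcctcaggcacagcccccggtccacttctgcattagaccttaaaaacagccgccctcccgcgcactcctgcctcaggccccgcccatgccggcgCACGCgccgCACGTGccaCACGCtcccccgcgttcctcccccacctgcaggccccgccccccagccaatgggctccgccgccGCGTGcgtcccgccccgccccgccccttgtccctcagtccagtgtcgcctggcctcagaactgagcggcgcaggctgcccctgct
Higd1a: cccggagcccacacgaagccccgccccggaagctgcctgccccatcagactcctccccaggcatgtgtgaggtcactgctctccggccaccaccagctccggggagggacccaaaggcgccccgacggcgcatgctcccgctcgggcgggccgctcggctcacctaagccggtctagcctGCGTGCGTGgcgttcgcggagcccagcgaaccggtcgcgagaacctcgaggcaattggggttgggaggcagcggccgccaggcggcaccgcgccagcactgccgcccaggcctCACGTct
Hk2: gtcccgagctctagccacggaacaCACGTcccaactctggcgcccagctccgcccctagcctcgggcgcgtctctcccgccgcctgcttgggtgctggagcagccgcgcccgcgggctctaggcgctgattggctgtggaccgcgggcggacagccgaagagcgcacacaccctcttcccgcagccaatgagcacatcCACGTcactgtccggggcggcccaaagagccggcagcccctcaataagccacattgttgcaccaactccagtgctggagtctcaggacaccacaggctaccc
Pgm5: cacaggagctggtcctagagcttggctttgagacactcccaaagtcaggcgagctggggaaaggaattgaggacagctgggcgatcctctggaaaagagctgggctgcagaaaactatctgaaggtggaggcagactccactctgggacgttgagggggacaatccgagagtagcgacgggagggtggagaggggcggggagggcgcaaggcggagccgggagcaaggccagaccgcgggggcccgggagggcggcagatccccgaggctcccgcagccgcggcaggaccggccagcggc

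These windows lie at chr10:78009758-78010057 for Pfkl, chr7:138909457-138909756 for Bnip3, chr9:121857747-121858046 for Higd1a, chr6:82774405-82774704 for Hk2 and chr19:24861793-24862092 for Pgm5, all on the minus strand. Bnip3 held 5 matches between -117 and -35 from the start, 2 of them from a single CACGTG. Higd1a held 3 matches, of which 2 GCGTG share a base; Hk2 held 2 ACGTG, at -226 and -52; and Pfkl held 1 GCGTG at -99. Pgm5 held no match in its window. Of the fallen genes not shown, Slc16a1 held 3 ACGTG and 2 GCGTG in its window, and Ldhb held 1 GCGTG.

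Either core, on either strand, was found in 37 of the 47 windows (78.7%), against 60.1% of 13282 windows of tested genes and 43.8% of 32851 windows in the whole table. ACGTG was in 55.3% of the 47 windows and 24.9% of those of tested genes, and GCGTG in 53.2% and 48.7%. Counted by gene over any of its windows, 29 of 34 (85.3%) held a core, against 65.9% of tested genes with a window. By that count a core was held by all 11 risen genes with a window, by 2 of the 3 fallen ones and by 15 of 18 not past the threshold (83.3%). In the nearest window alone, 26 of 34 genes, 10 of the 11 risen and 2 of the 3 fallen held one. GGAAGT, an ETS core with its flank, was in 5 of the 47 windows (10.6%) and in 28.3% of windows of tested genes. The median count of CG pairs was 20 in both the 47 windows and those of tested genes, and 24 in the windows of risen genes. These matches are descriptions of sequence and show no binding.

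Both directions were seen among the 4 transporters that bring glucose in and move lactate across the membrane: Slc2a1 rose, Slc16a1 fell, and Slc2a3 and Slc16a3 did not pass. Slc2a1 (ENSMUSG00000028645, GRCm38 chr4:119108711-119137983, plus strand) encodes GLUT1, the basal glucose transporter of many cells. In replicates 1 to 5 of the libraries labelled knockout it had 31.1, 154, 182, 25 and 18.8 CPM, against 5.92, 5.97, 5.61 and 11.6 CPM in control replicates 1 to 4. All knockout-labelled libraries lay above all controls, with replicates 2 and 3 far above the other 3. The mean was 82.2 ± 79.1 CPM in libraries labelled knockout and 7.28 ± 2.91 CPM in controls, 11.3-fold higher (log2 fold change 3.50 ± 0.79 SE, adjusted p = 0.00928). Without replicates 2 and 3 it was 3.44-fold higher (adjusted p = 0.00263).

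Slc2a3 encodes GLUT3, a glucose transporter with high affinity. Its levels were 8.68, 62.0, 173, 5.49 and 4.94 CPM in libraries labelled knockout, against 4.68, 4.56, 5.01 and 8.03 CPM in controls. Replicates 2 and 3 were high and the other 3 lay at or near the control range, so the groups overlapped. The log2 fold change was 3.19 ± 1.12 SE (adjusted p = 0.0573) over all libraries and 0.20 (adjusted p = 0.626) without replicates 2 and 3. Slc16a3, which encodes the lactate exporter MCT4, had the same arrangement, with 4.94, 34.1, 53.7, 5.86 and 2.30 CPM in libraries labelled knockout against 4.61, 3.78, 4.25 and 2.57 CPM in controls (2.41 ± 0.89, adjusted p = 0.0681; 0.21, adjusted p = 0.678, without replicates 2 and 3).

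Slc16a1 (ENSMUSG00000032902, chr3:104638668-104658462, plus strand) encodes MCT1, a transporter of lactate, pyruvate and ketone bodies. It fell to 2.68, 5.99, 9.12, 3.24 and 2.14 CPM in libraries labelled knockout, against 26.9, 15.1, 16.2 and 26.5 CPM in controls. No library of either group reached the range of the other, and replicates 2 and 3 were here the closest to the controls. The mean was 4.63 ± 2.91 CPM in libraries labelled knockout and 21.2 ± 6.37 CPM in controls, 4.54-fold lower (-2.18 ± 0.42, adjusted p = 0.00427), and 7.85-fold lower without replicates 2 and 3 (adjusted p = 0.000127).

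**Figure D2:**
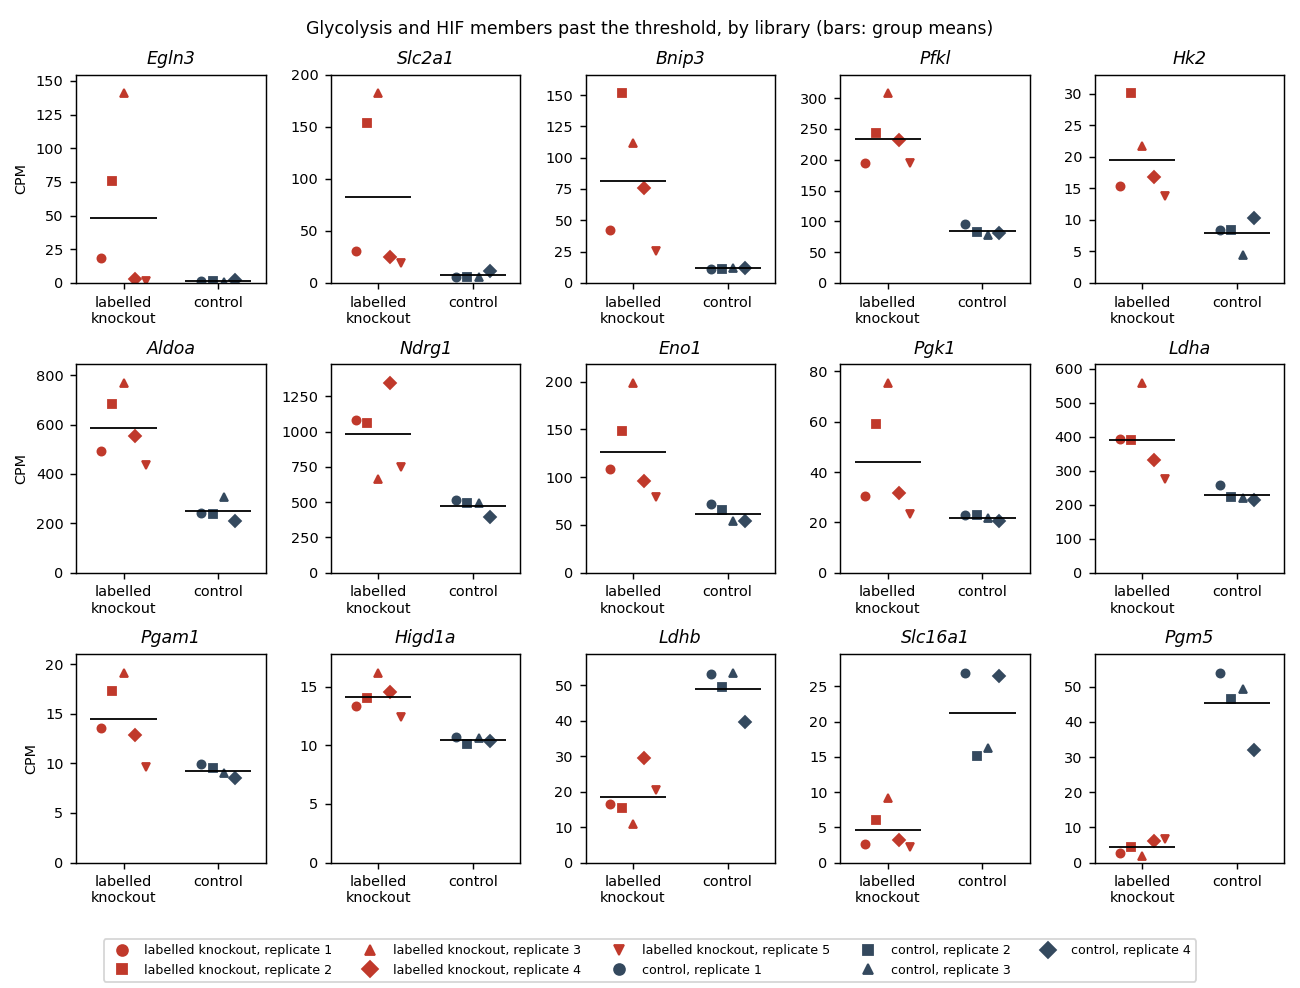
CPM in each library for the 15 genes that passed the test, with the 5 libraries labelled knockout left of the 4 controls in each panel and bars at the group means. Replicates 2 and 3 are the highest knockout-labelled points for Slc2a1 (154 and 182 CPM) and Egln3 (75.8 and 141 CPM), whereas Ndrg1 has replicate 3 lowest at 666 CPM.

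Glucose is trapped in the cell by hexokinase, and here Hk2 rose while Hk1, the more abundant enzyme, did not pass. Hk2 (ENSMUSG00000000628, chr6:82725025-82774454, minus strand) encodes an inducible hexokinase that binds mitochondria. It had 15.3, 30.1, 21.8, 16.9 and 13.9 CPM in libraries labelled knockout, against 8.38, 8.40, 4.35 and 10.4 CPM in controls, with no overlap. The means were 19.6 ± 6.57 CPM in libraries labelled knockout and 7.87 ± 2.53 CPM in controls, 2.49-fold higher (1.31 ± 0.29, adjusted p = 0.00875), and 1.96-fold higher without replicates 2 and 3 (adjusted p = 0.0202). Hk1 averaged 192 ± 7.47 CPM in libraries labelled knockout and 181 ± 7.88 CPM in controls (0.08 ± 0.07, adjusted p = 0.376). Gpi1, which turns glucose 6-phosphate into fructose 6-phosphate, lay between 249.5 and 452 CPM in libraries labelled knockout and between 221 and 237 CPM in controls; the groups did not overlap, yet the test was not passed (0.49 ± 0.19, adjusted p = 0.0807).

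On the glycogen side, Pgm5 fell and the others did not pass. Pgm1 and Pgm2 encode phosphoglucomutases, which link glucose 1-phosphate to glucose 6-phosphate; Pgm5 encodes a relative, aciculin, known as a component of cell junctions with little such activity. Pgm5 (ENSMUSG00000041731, chr19:24683016-24861855, minus strand), whose promoter without a core is printed above, had 2.61, 4.51, 1.87, 6.0 and 6.78 CPM in libraries labelled knockout, against 53.9, 46.4, 49.4 and 31.9 CPM in controls. Each knockout-labelled library lay well below the lowest control. The means were 4.35 ± 2.11 CPM in libraries labelled knockout and 45.4 ± 9.52 CPM in controls, 10.5-fold lower (-3.39 ± 0.36, adjusted p = 0.000203), and 8.78-fold lower without replicates 2 and 3 (adjusted p = 0.000366).

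Pgm1 had 9.03, 19.1, 20.9, 9.80 and 10.8 CPM in libraries labelled knockout, against 20.8, 20.7, 15.8 and 19.9 CPM in controls. Replicates 2 and 3 lay within or just above the control range and the other 3 below it. The log2 fold change was -0.47 ± 0.26 (adjusted p = 0.213) over all libraries, and the gene was called lower without replicates 2 and 3 (-0.96, adjusted p = 0.000836). Pgm2 averaged 99.9 ± 8.0 CPM in libraries labelled knockout and 109 ± 6.5 CPM in controls (adjusted p = 0.273). Gys1, the glycogen synthase of muscle and most tissues, averaged 11.8 ± 3.0 CPM in libraries labelled knockout and 9.87 ± 0.811 CPM in controls (adjusted p = 0.307).

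At the phosphofructokinase step, which commits sugar to glycolysis, 1 of 5 genes rose. Pfkl (ENSMUSG00000020277, chr10:77986947-78010083, minus strand) encodes the liver-type enzyme. It had 194, 243, 308, 232 and 195 CPM in libraries labelled knockout, against 96.2, 82.8, 77.8 and 81.3 CPM in controls. Each knockout-labelled library lay above every control, and the separation did not rest on replicates 2 and 3. The means were 234 ± 46.4 CPM in libraries labelled knockout and 84.5 ± 8.06 CPM in controls, 2.77-fold higher (1.47 ± 0.15, adjusted p = 0.000115), and 2.46-fold higher without those replicates (adjusted p = 4.48e-05). Pfkm, the muscle-type enzyme, averaged 17.9 ± 2.65 CPM in libraries labelled knockout and 19.7 ± 2.04 CPM in controls (adjusted p = 0.449). Pfkp, the platelet-type enzyme, averaged 51.3 ± 6.68 CPM in libraries labelled knockout and 53.8 ± 5.10 CPM in controls (adjusted p = 0.664).

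Pfkfb3 and Pfkfb4 encode bifunctional enzymes that set fructose 2,6-bisphosphate, the activator of phosphofructokinase; Pfkfb3 is the form known for driving glycolysis in sprouting vessels. Pfkfb3 had 49.4, 47.2, 103, 52.5 and 46.1 CPM in libraries labelled knockout, against 80.5, 79.2, 93.9 and 70.5 CPM in controls. Of the knockout-labelled libraries 4 lay below all controls, and replicate 3 lay above all of them. The test was not passed over all libraries (-0.44 ± 0.24, adjusted p = 0.196), and without replicate 3 the gene was called lower (-0.73, adjusted p = 0.000681). Pfkfb4 averaged 2.14 ± 0.549 CPM in libraries labelled knockout and 1.64 ± 0.230 CPM in controls (adjusted p = 0.247).

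From aldolase to pyruvate kinase, 4 of 7 tested genes rose (Aldoa, Pgk1, Pgam1 and Eno1) and none fell, and for each of these 7 genes the highest knockout-labelled libraries were replicates 2 and 3. Aldoa (ENSMUSG00000030695, chr7:126795234-126800751, minus strand), the aldolase that splits fructose 1,6-bisphosphate, had 491, 682, 767, 553 and 437 CPM in libraries labelled knockout, against 243, 236, 308 and 211 CPM in controls, with no overlap. The means were 586 ± 136 CPM in libraries labelled knockout and 249 ± 41.2 CPM in controls, 2.35-fold higher (1.23 ± 0.19, adjusted p = 0.00114), and 1.99-fold higher without replicates 2 and 3 (adjusted p = 0.000779). The second Aldoa row, ENSMUSG00000114515, held only 34 counts in all and was not tested. Aldoc, the brain-type aldolase, held 48 counts, and Eno2, the neuronal enolase, 18 counts in libraries labelled knockout and 1 in controls.

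Eno1 (ENSMUSG00000063524, chr4:150236721-150248879, plus strand), the main enolase, had 108, 148, 198, 95.7 and 79.3 CPM in libraries labelled knockout, against 72.0, 65.2, 54.6 and 54.5 CPM in controls, again with no overlap. It was 2.05-fold higher (1.03 ± 0.25, adjusted p = 0.0137) and 1.54-fold higher without replicates 2 and 3 (adjusted p = 0.00805). Pgk1 (ENSMUSG00000062070, chrX:106187100-106203699, plus strand), the first enzyme of the pathway to make ATP, had 30.3, 59.3, 75.3, 31.6 and 23.2 CPM in libraries labelled knockout, against 22.9, 22.7, 21.7 and 20.4 CPM in controls. The lowest knockout-labelled library, replicate 5, lay barely above the highest control. Pgk1 was 2.01-fold higher (1.0 ± 0.33, adjusted p = 0.0436) and 1.30-fold higher without replicates 2 and 3 (adjusted p = 0.036). It held its call in 10 of 19 alternative analyses. Leaving out any single control, or replicate 2 or 3, ended the call (adjusted p from 0.0666 to 0.0973). So did a sex term (adjusted p = 0.07), limma-voom (0.0767) and a fit without a count filter (0.124).

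Pgam1 (ENSMUSG00000011752, chr19:41911923-41918660, plus strand), a phosphoglycerate mutase, had 13.6, 17.3, 19.1, 12.9 and 9.62 CPM in libraries labelled knockout, against 9.95, 9.53, 9.08 and 8.54 CPM in controls. Of the knockout-labelled libraries 4 lay above all controls, and replicate 5 lay among them. It was 1.57-fold higher (0.65 ± 0.19, adjusted p = 0.0261); the call was lost without replicates 2 and 3 (1.31-fold, adjusted p = 0.0768) and without any 1 of the controls (0.0518 to 0.066).

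Gapdh (ENSMUSG00000057666, chr6:125161715-125166467, minus strand), often used as a reference transcript, had 240.2, 399.8, 489.8, 268 and 192 CPM in libraries labelled knockout, against 243, 215, 208 and 190.4 CPM in controls. Replicates 2 and 3 were high and replicates 1 and 5 lay within the control range, so the groups overlapped (0.57 ± 0.25, adjusted p = 0.123). Tpi1, triose phosphate isomerase, averaged 102 ± 57.4 CPM in libraries labelled knockout and 56.6 ± 6.16 CPM in controls (0.85 ± 0.36, adjusted p = 0.108). Pkm, pyruvate kinase, averaged 488 ± 219 CPM in libraries labelled knockout and 368 ± 30.6 CPM in controls (adjusted p = 0.32), and its log2 fold change turned from 0.40 to -0.12 without replicates 2 and 3.

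Pyruvate can be turned to lactate or sent to the mitochondrion, and the lactate dehydrogenase subunits moved in opposite directions. Ldha (ENSMUSG00000063229, chr7:46841475-46855627, plus strand) encodes the subunit that favours lactate production. It had 395, 389, 557, 330.2 and 275 CPM in libraries labelled knockout, against 257, 223, 219.8 and 215 CPM in controls, with no overlap. The means were 389 ± 106 CPM in libraries labelled knockout and 229 ± 19.4 CPM in controls, 1.70-fold higher (0.77 ± 0.18, adjusted p = 0.0117), and 1.46-fold higher without replicates 2 and 3 (adjusted p = 0.0117). Ldhb (ENSMUSG00000030246, chr6:142490249-142507957, minus strand), the subunit that favours lactate use, had 16.5, 15.4, 10.9, 29.5 and 20.4 CPM in libraries labelled knockout, against 53.1, 49.5, 53.4 and 39.6 CPM in controls. These groups did not overlap either, and the means, 18.5 ± 6.99 CPM in libraries labelled knockout and 48.9 ± 6.44 CPM in controls, made it 2.64-fold lower (-1.40 ± 0.25, adjusted p = 0.00274), and 2.20-fold lower without replicates 2 and 3 (adjusted p = 0.00302). Pdk1, the kinase that holds pyruvate dehydrogenase inactive, averaged 92.5 ± 29.8 CPM in libraries labelled knockout and 70.5 ± 6.85 CPM in controls (0.39 ± 0.21, adjusted p = 0.197).

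**Figure D3:**
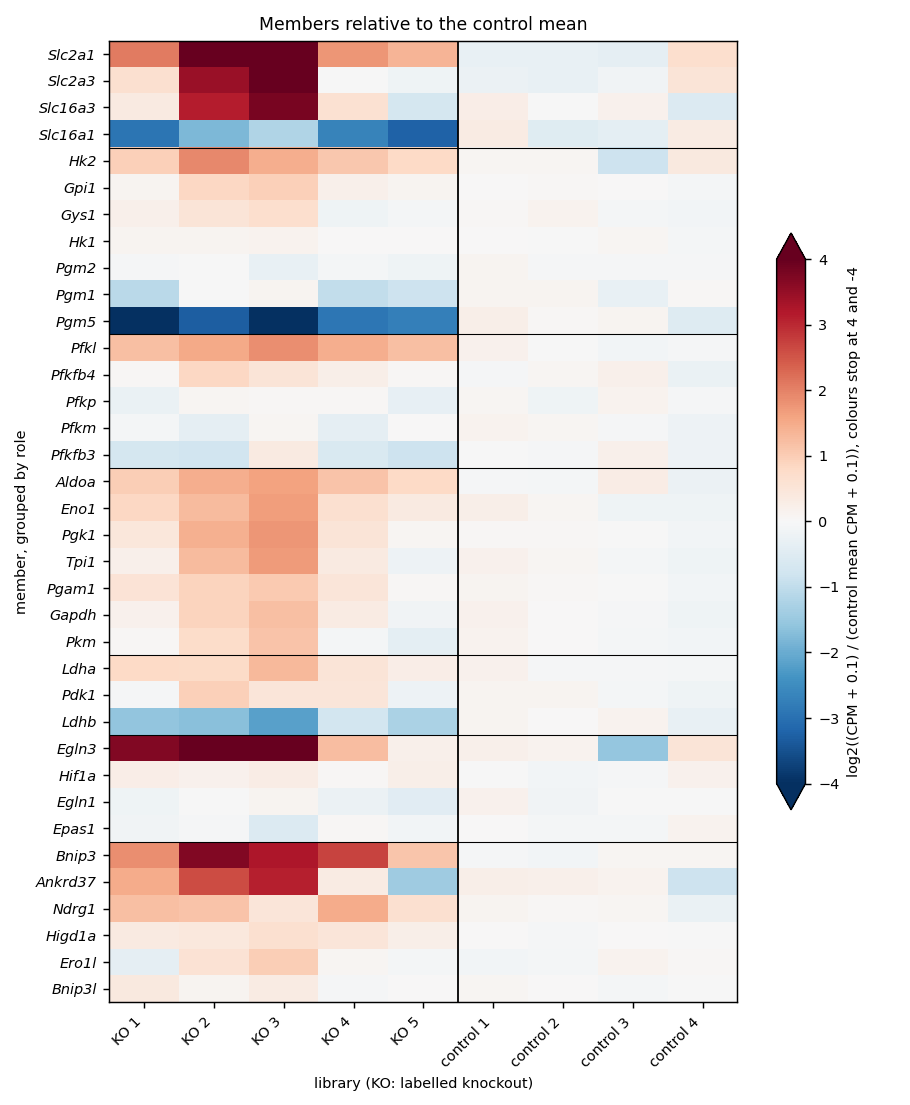
Level of each tested gene in each library relative to the control mean, as log2((CPM + 0.1)/(control mean CPM + 0.1)), with genes grouped by role and the libraries labelled knockout (KO) left of the controls. Pfkl is red in all 5 libraries labelled knockout and Slc16a1, Ldhb and Pgm5 are blue in all 5, while Slc2a3, Slc16a3 and most of the lower glycolytic genes are deepest red in replicates 2 and 3.

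Among the HIF subunits and their oxygen sensors, Egln3 rose and the subunits themselves did not pass. Hif1a (ENSMUSG00000021109, chr12:73901375-73947530, plus strand) had 126, 118, 128, 108 and 122 CPM in libraries labelled knockout, against 103, 97.3, 101 and 117 CPM in controls; 4 of the 5 lay above every control. Its difference was small and just missed the threshold (0.20 ± 0.08, adjusted p = 0.0761), and it was called without control replicate 4 (adjusted p = 0.0345), without knockout-labelled replicate 4 (0.0479) or with scaling by library totals alone (0.0323). Epas1 (ENSMUSG00000024140, chr17:86753700-86833410, plus strand), which encodes HIF-2 alpha, a form prominent in endothelium, had 1290.1, 1369.7, 977, 1445 and 1319.7 CPM in libraries labelled knockout, against 1431, 1327, 1338 and 1561 CPM in controls. The groups overlapped (-0.14 ± 0.13, adjusted p = 0.445), with replicate 3 the lowest of all.

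Egln3 (ENSMUSG00000035105, chr12:54178981-54203860, minus strand) encodes PHD3, a prolyl hydroxylase that is itself a HIF target. It had 18.2, 75.8, 141, 3.20 and 1.5 CPM in libraries labelled knockout, against 1.51, 1.44, 0.378 and 1.89 CPM in controls. Of the knockout-labelled libraries 4 lay above every control and replicate 5 within their range, and the highest held 93.6 times the level of the lowest. The means, 47.9 ± 60.0 CPM in libraries labelled knockout and 1.30 ± 0.648 CPM in controls, made it 36.6-fold higher (5.20 ± 1.37, adjusted p = 0.0187). By limma-voom it was 15.5-fold higher and not called (adjusted p = 0.252). A fit with a replicate block, run without knockout-labelled replicate 5, gave 23.8-fold for Egln3 (adjusted p = 0.0661). Without replicate 3 it was 18.8-fold higher (adjusted p = 0.033); without replicates 2 and 3 it was 5.88-fold higher and not called (adjusted p = 0.0598), and leaving out control replicate 1, 2 or 3 ended the call as well (0.0532 to 0.0558). Egln1, the main sensor, averaged 64.1 ± 9.50 CPM in libraries labelled knockout and 70.5 ± 6.41 CPM in controls (adjusted p = 0.405).

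Of 6 other hypoxia-responsive genes, Bnip3, Ndrg1 and Higd1a rose and the groups did not overlap for any of these. Bnip3 (ENSMUSG00000078566, chr7:138890836-138909519, minus strand), a mitochondrial protein that marks mitochondria for autophagy and whose promoter with 5 core matches is printed above, had 42.2, 151, 111, 75.9 and 25.3 CPM in libraries labelled knockout, against 11.3, 10.7, 12.2 and 12.3 CPM in controls. The controls were tightly grouped and each knockout-labelled library was clear of them. The means were 81.2 ± 51.2 CPM in libraries labelled knockout and 11.6 ± 0.742 CPM in controls, 6.99-fold higher (2.80 ± 0.48, adjusted p = 0.00243), and 4.13-fold higher without replicates 2 and 3 (adjusted p = 0.00252). Bnip3l, its relative, averaged 95.5 ± 12.1 CPM in libraries labelled knockout and 84.9 ± 4.07 CPM in controls (adjusted p = 0.211).

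Ndrg1 (ENSMUSG00000005125, chr15:66929318-66969640, minus strand), a stress-induced cytoplasmic protein, was abundant and had 1085, 1058, 666, 1343 and 748 CPM in libraries labelled knockout, against 516, 491, 497 and 398 CPM in controls. Unlike Slc2a1, its highest library was replicate 4 and its lowest replicate 3. The means were 979.9 ± 274 CPM in libraries labelled knockout and 475 ± 52.8 CPM in controls, 2.06-fold higher (1.04 ± 0.21, adjusted p = 0.00464), and 2.24-fold higher without replicates 2 and 3 (adjusted p = 0.00181). Higd1a (ENSMUSG00000038412, chr9:121848563-121858362, minus strand), a mitochondrial inner membrane protein, had 13.4, 14.0, 16.2, 14.5 and 12.4 CPM in libraries labelled knockout, against 10.7, 10.1, 10.7 and 10.4 CPM in controls. Its change was small and even across libraries, 1.35-fold higher (0.43 ± 0.10, adjusted p = 0.00839) and 1.29-fold higher without replicates 2 and 3 (adjusted p = 0.0269). Ankrd37, an ankyrin repeat protein, had 3.21, 6.97, 9.95, 1.36 and 0.334 CPM in libraries labelled knockout, against 1.28, 1.25, 1.20 and 0.561 CPM in controls, and was not called (2.03 ± 0.81, adjusted p = 0.0879). Ero1l, an oxidase of protein folding, averaged 45.1 ± 17.4 CPM in libraries labelled knockout and 36.1 ± 2.79 CPM in controls (adjusted p = 0.355).

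Isoforms of a step were then set against each other within each library, as shares of their summed CPM per kb of exon, and compared by an exact two-sided permutation test of the group labels over the 9 libraries, for which the smallest possible p is 0.0159. Of 9 families, 6 differed after Benjamini-Hochberg adjustment over the families. Pfkl took 76.6%, 80.6%, 81.6%, 79.9% and 76.2% of the phosphofructokinase level in libraries labelled knockout, against 57.3%, 56.1%, 53.4% and 57.4% in controls. Its share was nearly even within each group, and the means were 79.0% ± 2.43 in libraries labelled knockout and 56.0% ± 1.85 in controls (exact p = 0.0159, adjusted p = 0.0286).

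Ldha took 91.9%, 92.3%, 96.0%, 84.2% and 86.5% of lactate dehydrogenase in libraries labelled knockout, against 69.7%, 68.1%, 66.1% and 72.0% in controls (exact p = 0.0159, adjusted p = 0.0286). The share of Slc16a3 in the lactate transporter pair was 60.5%, 82.6%, 83.1%, 60.1% and 47.3% in libraries labelled knockout, against 12.5%, 17.2%, 17.9% and 7.47% in controls (exact p = 0.0159, adjusted p = 0.0286). Unlike the level of Slc16a3 alone, this share separated the groups in every library. The share also depends on Slc16a1, which fell to 4.63 ± 2.91 CPM in libraries labelled knockout from 21.2 ± 6.37 CPM in controls. Slc16a3 itself had 4.94, 5.86 and 2.30 CPM in knockout-labelled replicates 1, 4 and 5, against 2.57 to 4.61 CPM in controls.

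Hk2 rose to 12.6% ± 3.35 of hexokinase in libraries labelled knockout, against 5.89% ± 2.0 in controls, so that Hk1 held most of it in both groups (exact p = 0.0159, adjusted p = 0.0286). Pgm5 fell to 2.7% ± 1.34 of the phosphoglucomutase family in libraries labelled knockout, against 20.5% ± 3.31 in controls (exact p = 0.0159, adjusted p = 0.0286). Hif1a made 8.35% ± 1.65 of the alpha subunit pair in libraries labelled knockout and 6.55% ± 0.141 in controls (exact p = 0.0317, adjusted p = 0.0476), with Epas1 the larger part throughout; the share was 6.64% in knockout-labelled replicate 4, within the control range. Slc2a1 held 83.9% ± 8.96 of the glucose transporter pair in libraries labelled knockout and 72.5% ± 2.12 in controls (exact p = 0.0794, adjusted p = 0.102). Its share was lowest, 68.5%, in knockout-labelled replicate 3, the library with the most Slc2a3. Aldoa and Eno1 were nearly the whole of their families in both groups.

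**Figure D4:**
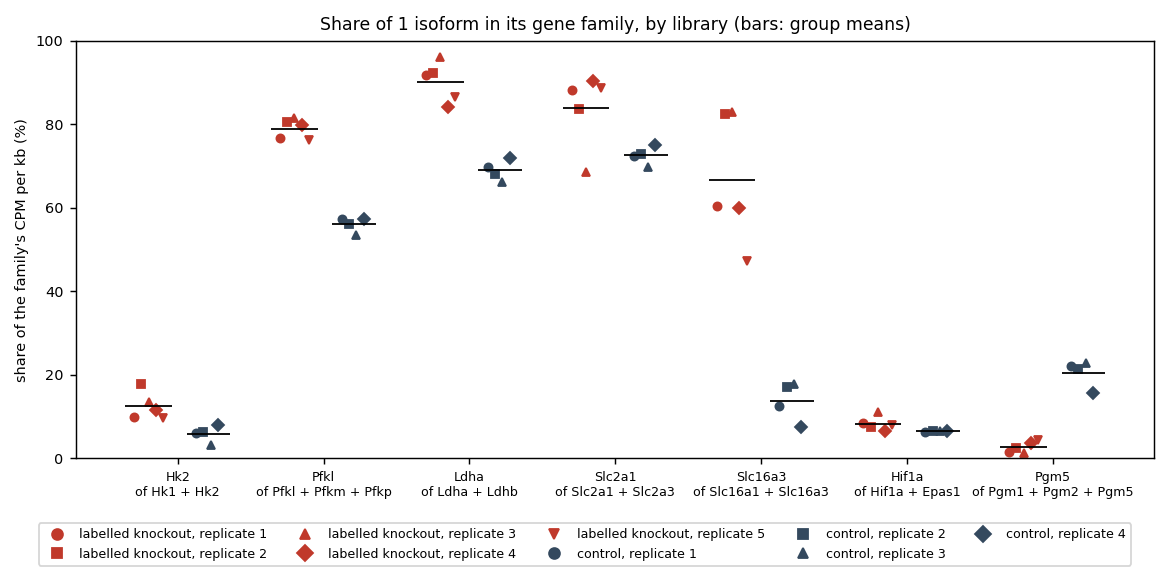
Share of each isoform in the summed CPM per kb of its family, per library, for 7 families, with the libraries labelled knockout left of the controls. For Pfkl, Ldha, Slc16a3, Hk2 and Pgm5 the groups do not overlap, with Ldha between 84.2% and 96.0% in libraries labelled knockout and between 66.1% and 72.0% in controls.

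Per length of transcript, the order of levels can be compared between genes. In libraries labelled knockout the highest mean levels were Epas1 at 229 CPM per kb, Aldoa at 201, Ndrg1 at 149, Ldha at 118 and Pkm at 97.5 CPM per kb. In controls they were Epas1 at 253, Aldoa at 85.6, Pkm at 73.7, Ndrg1 at 72.1 and Ldha at 69.1 CPM per kb. Aldoa and Epas1 led in both groups. Summed over 17 core glycolytic enzymes, the level was 2462, 3414, 4169, 2513 and 2074 CPM in libraries labelled knockout, against 1972, 1829, 1865 and 1683 CPM in controls. For this sum every knockout-labelled library lay above every control, with replicate 5 closest to them and replicates 2 and 3 farthest. The sum weighs abundant genes most, and single enzymes did not all follow it. In replicate 5 Aldoa had 437 CPM, against 211 to 308 CPM in controls. Pkm, at 282 CPM against 341 to 410 CPM, and Tpi1, at 49.2 CPM against 49.9 to 63.4 CPM, lay there below all controls.

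Spread between libraries was measured for each gene within each group. The median SD of log2(CPM + 0.1) was 0.45 over the 36 genes in libraries labelled knockout and 0.14 in controls, against 0.25 and 0.18 over all genes tested. Of the 36 genes, 6 (16.7%) had an SD above 1 among libraries labelled knockout, against 793 of all genes tested (5.44%). These were Egln3 (2.79), Slc2a3 (2.30), Slc16a3 (1.92), Ankrd37 (1.83), Slc2a1 (1.54) and Bnip3 (1.04). At the other end stood Hk1 (0.06) and Hif1a (0.10). Replicates 2 and 3 were the highest of the libraries labelled knockout for 24 of the 36 genes (66.7%), against 18.4% of all genes tested. The exceptions among the called genes were Ldha, Ldhb, Pgm5, Ndrg1 and Higd1a. Replicates 2 and 3 had the lowest endothelial marker sums, yet were the highest of the libraries labelled knockout for 4 of those 11 markers, as given above. Stellate cell markers summed to 32.0 and 18.4 CPM in replicates 2 and 3, within 6.95 to 32.0 CPM in libraries labelled knockout and 6.71 to 17.0 CPM in controls. Cholangiocyte markers summed to 17.8 and 7.54 CPM in them, within 2.10 to 17.8 CPM in libraries labelled knockout and 2.39 to 6.81 CPM in controls. Kupffer cell markers summed to 835 CPM in replicate 2 and 150.0 CPM in replicate 3, against 153 to 593 CPM in controls. Their part in the spread was not tested.

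**Figure D5:**
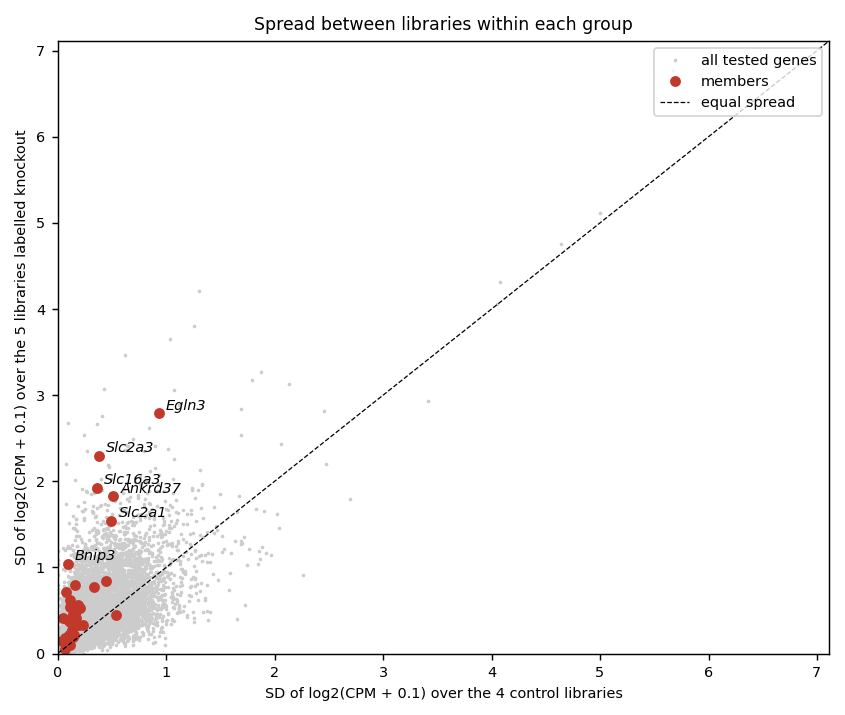
SD of log2(CPM + 0.1) over the 5 libraries labelled knockout (vertical axis) against that over the 4 controls (horizontal axis), with the 36 genes in red over all tested genes in grey and a dashed line of equal spread. Egln3, at 2.79 on the vertical axis, Slc2a3 at 2.30 and Slc16a3 at 1.92 lie far above the line.

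Other genes of the same pathways were counted from further lists, and their shares stand beside the 14.5% higher, 14.8% lower and 29.3% in either direction of all genes tested. Of 33 tested of 38 other HIF target genes, 13 (39.4%) rose and 2 (6.06%) fell, with a median log2 fold change of 0.58; without replicates 2 and 3, 12 rose and 5 fell and the median was 0.17. Angptl4, a secreted inhibitor of lipoprotein lipase, reached 36.7 ± 19.8 CPM in libraries labelled knockout, against 2.40 ± 0.279 CPM in controls, 15.3-fold higher (adjusted p = 0.000172) and 11.2-fold higher without replicates 2 and 3. Loxl2, a collagen crosslinking enzyme, averaged 178 ± 34.4 CPM in libraries labelled knockout and 37.0 ± 12.9 CPM in controls (2.26 ± 0.25, adjusted p = 0.000247). Ddit4, an inhibitor of mTORC1 signalling, averaged 192 ± 112 CPM in libraries labelled knockout and 28.7 ± 3.38 CPM in controls (adjusted p = 0.000803). Zfp395, a zinc finger protein, fell to 16.3 ± 3.39 CPM in libraries labelled knockout, against 41.2 ± 6.14 CPM in controls (adjusted p = 0.000404).

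Of 12 tested HIF pathway regulators, 2 rose and 1 fell, 25% in all, near the 29.3% of all genes tested. Vhl, the ligase subunit that directs the alpha subunits to destruction, averaged 24 ± 1.90 CPM in libraries labelled knockout and 15.9 ± 1.17 CPM in controls (0.60 ± 0.09, adjusted p = 0.00107). Cited2, which competes with HIF for a coactivator, averaged 16.8 ± 2.80 CPM in libraries labelled knockout and 10.2 ± 2.32 CPM in controls (adjusted p = 0.0155). Siah2, a ligase that targets prolyl hydroxylases, fell to 7.02 ± 1.55 CPM in libraries labelled knockout, against 15 ± 3.26 CPM in controls (adjusted p = 0.00297). Arnt, the constant partner of HIF, averaged 146 ± 6.26 CPM in libraries labelled knockout and 130.3 ± 4.45 CPM in controls (0.16 ± 0.06, adjusted p = 0.074).

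Among the remaining isozymes of glycolysis and gluconeogenesis, 22 of 29 listed were tested, and of these 0 rose and 6 fell in edgeR. At an unadjusted p under 0.05, 1 was higher and 6 lower, and the median log2 fold change was -0.33. The 27.3% called is near the 29.3% of all genes tested called in either direction. All 6 calls were falls, however, whereas 14.8% of all genes tested fell and 14.5% rose. Only 2 of these isozymes were called lower without control replicate 3, and 3 without control replicate 1. Galm, which interconverts the forms of glucose at the entry of the pathway, fell to 4.57 ± 0.468 CPM in libraries labelled knockout, against 9.72 ± 1.08 CPM in controls (adjusted p = 0.000327). G6pc3, a glucose 6-phosphatase, fell to 13.4 ± 2.45 CPM in libraries labelled knockout, against 19.6 ± 1.30 CPM in controls (adjusted p = 0.0169). Pck1, the gluconeogenic carboxykinase most abundant in hepatocytes, averaged 4.0 ± 1.51 CPM in libraries labelled knockout and 8.34 ± 2.17 CPM in controls (adjusted p = 0.0216), and the hepatocyte markers summed to 177 to 382 CPM in libraries labelled knockout and 198 to 471 CPM in controls. That sum includes Ass1, at 94.3 ± 47.4 CPM in libraries labelled knockout against 13.4 ± 3.26 CPM in controls. The median log2 fold change of the 17 hepatocyte markers was -1.11, beside -1.06 for Pck1. The part of hepatocyte RNA in the fall of Pck1 was not tested.

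Of 18 tested genes of glycogen metabolism, 7 (38.9%) fell, against 14.8% of all genes tested, with a median log2 fold change of -0.15 over the list. Pygb, the brain-type glycogen phosphorylase, fell to 48.7 ± 2.98 CPM in libraries labelled knockout, against 77.3 ± 6.15 CPM in controls (-0.67 ± 0.07, adjusted p = 0.000234). The pentose phosphate pathway showed 2 higher and 2 lower of 10, 40% in all, and neither fall was called without replicates 2 and 3: G6pdx, its first enzyme, averaged 32.2 ± 4.32 CPM in libraries labelled knockout and 24.6 ± 2.06 CPM in controls (adjusted p = 0.0217), and Taldo1, transaldolase, fell to 64.8 ± 7.80 CPM in libraries labelled knockout, against 86.8 ± 10.6 CPM in controls (adjusted p = 0.0177).

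Where pyruvate enters the mitochondrion, 1 of 14 genes rose and 0 fell in edgeR (4 higher and 1 lower at an unadjusted p under 0.05). That gene was Pdha1, a subunit of pyruvate dehydrogenase, at 107 ± 9.58 CPM in libraries labelled knockout and 83.5 ± 5.26 CPM in controls (0.36 ± 0.08, adjusted p = 0.00937). Of 20 genes of the tricarboxylic acid cycle, 3 rose and 2 fell, 25% in all and near the 29.3% of all genes tested, with a median of 0.06; without replicates 2 and 3, 1 rose and 1 fell. Mdh2, the mitochondrial malate dehydrogenase, averaged 130.2 ± 13.4 CPM in libraries labelled knockout and 86.1 ± 5.62 CPM in controls (adjusted p = 0.00117), and Idh1, the cytosolic isocitrate dehydrogenase, fell to 50.6 ± 7.73 CPM in libraries labelled knockout, against 75.3 ± 9.38 CPM in controls (adjusted p = 0.00875).

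Of 21 tested regulators of glycolysis, 1 rose and 4 fell, 23.8% in all, near the 29.3% of all genes tested. Fgfr1, a growth factor receptor whose signalling is known to sustain endothelial glycolysis, reached 504 ± 87.8 CPM in libraries labelled knockout, against 70.9 ± 35.6 CPM in controls (2.83 ± 0.33, adjusted p = 0.000298). Fgfr3, another growth factor receptor of the list, fell (-1.23 ± 0.30, adjusted p = 0.0144). It had 27.2 ± 9.41 CPM in libraries labelled knockout, against 63.5 ± 22.4 CPM in controls. Foxo1, known as a brake on endothelial growth and metabolism, fell to 89.5 ± 9.03 CPM in libraries labelled knockout, against 147 ± 12.0 CPM in controls (-0.71 ± 0.09, adjusted p = 0.000474). Arrdc4 and Txnip encode related arrestin proteins that limit glucose uptake. Arrdc4 fell to 25 ± 6.41 CPM in libraries labelled knockout, against 54.6 ± 10.2 CPM in controls (adjusted p = 0.00293). Txnip, named after its values were seen, fell to 1065 ± 391 CPM in libraries labelled knockout, against 2155 ± 400.1 CPM in controls (adjusted p = 0.0228).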

How the data were processed

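RNA of sorted mouse liver endothelial cells was measured in 5 libraries labelled Erg and Fli1 double knockout and 4 controls. The authors deposited raw counts per Ensembl gene; STAR 2.7.6a, FastQC 0.11.5 and build GRCm38 are named in the submitters' processing notes. Per the labels' protocols, polyadenylated RNA was prepared with an unstranded or a stranded TruSeq kit; which library had which, and the counting program with its strand and multiple-mapping settings, were not given in the sources used here. Reads of overlapping genes may therefore be merged: 10 of the tested genes (Aldoa, Ankrd37, Gapdh, Gys1, Hk1, Ndrg1, Pfkm, Pfkp, Pgm1 and Tpi1) share exon bases with a tested gene on the opposite strand, and Pkm with 1 on the same strand. Near-identical annotated copies, found for 13 genes with BLAST 2.17.0, held at most 0.565% of a gene's counts, although reads that fit both could be counted for either or neither. Genes that share exon bases with a listed gene were left out of that share. The gene on the strand of Pkm that overlaps it held 15273 counts over all libraries, beside 126952 for Pkm.

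Groups and replicate numbers came from the sample titles and columns from the sample descriptions; 0 columns were unused. GENCODE vM21 named 52403 of 52636 identifiers. Genes were filtered with filterByExpr (minimum count 10, minimum total 15), scaled by TMM and tested over all 14583 with edgeR 4.0.16 in R 4.3.3 (glmQLFit, robust, and glmQLFTest, no covariates, Benjamini-Hochberg, threshold 0.05). The SE is the log2 fold change over the square root of F. One count was worth 0.0260 to 0.0368 CPM. Nothing says that each library is a separate animal, so p-values measure the spread between these libraries. No libraries were copies of each other (chi-square per degree of freedom at least 20.3). On simulated counts (14362 genes) 79 of 100 2-fold changes and 94 of 100 4-fold changes were called, with 13 false calls. The simulated counts of a gene had the same dispersion in both groups. The 36 genes had a median SD of log2(CPM + 0.1) of 0.45 in libraries labelled knockout and 0.14 in controls. The simulated rates may therefore not hold for them.

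The genes and lists were chosen with earlier results of these data known. Genes past the threshold, and Hif1a, Epas1, Slc2a1, Gapdh, Ldha and Hk2, are given in every library, other genes by mean or by their values where libraries differed, and up to 4 genes of each further list by smallest p. Some results that this rule took are not reported here. Promoters came from RefSeq (GRCm38.p6), with shares counted over all windows; for printing, the window nearest to the GENCODE start was used for the 9 genes with several. Alternatives were DESeq2 1.42.0, limma-voom (limma 3.58.1), 3 other scalings, other filters, a sex term (sex read from Xist and Ddx3y), a replicate block (run without knockout-labelled replicate 5), leaving out each library, and leaving out knockout-labelled replicates 2 and 3 together. Control replicate 3 and knockout-labelled replicates 3, 4 and 5 read as female and the rest as male.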

Additional observations from a re-analysis of the deposited data

Results flagged for a closer look

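Over the 36 tested genes, 72 groups of libraries were screened for a library whose gap to its nearest neighbour exceeds Dixon's 95% critical value for its group's range (0.829 for 4 libraries, 0.71 for 5), and 5 were found; chance alone gives about 1 in 20 groups. Control replicate 4 accounts for 3 of them. Slc2a1 was 11.6 CPM there, against 5.61 to 5.97 CPM in the other controls. Slc2a3 was 8.03 CPM there, against 4.56 to 5.01 CPM. Ankrd37 was 0.561 CPM there, against 1.20 to 1.28 CPM. Pgm2 was 118 CPM in control replicate 1, against 104 to 106 CPM in the other controls. Pfkfb3 was 103 CPM in knockout-labelled replicate 3, against 46.1 to 52.5 CPM in the other libraries of that label.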

How the results depend on the processing

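Across all alternatives, genes called higher numbered 9 to 17 and those called lower 3 to 5, beside 12 and 3. Of the single-gene results under alternatives, 637 kept direction and side of the threshold, 21 lost a call, 19 gained one and 3 changed sign. The sign changes, without knockout-labelled replicates 2 and 3, were Gys1 (-0.0048), Pkm (-0.12) and Ero1l (-0.11), none of them called; 5 genes were then lower, with Pgm1 and Pfkfb3 added. Lost calls concerned only Pgk1, Egln3 and Pgam1: adjusted p reached 0.124 for Pgk1 without a count filter and 0.252 for Egln3 in limma-voom. DESeq2 also called Slc2a3, Slc16a3, Gpi1, Tpi1 and Ankrd37; the cause was not tested. A filter of 5 CPM in 4 libraries left Slc16a3, Pfkfb4, Ankrd37 and Egln3 untested.

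Leaving out each library in turn gave 9 to 17 genes higher and 3 to 4 lower, and 1495 to 1981 higher and 1591 to 2040 lower of all genes, beside 2110 and 2161. The isoform families that differed numbered 0 to 6 in an analysis added after seeing the data: 0 without knockout-labelled replicate 1, 2 or 5 or any control, where smaller designs raise the smallest possible p. With the longest transcript as length, 6 differed. Scaling by library totals gave 2623 higher and 1808 lower of all genes and moved their median log2 fold change to 0.08, from 0.01. Replicate numbers did not pair libraries (correlations of deviations 0.29, -0.03, -0.02 and -0.33). The fit with the replicate block was run without knockout-labelled replicate 5, so its libraries differ too. It gave 1288 higher and 1370 lower of all genes, 12 and 3 of the 36, and ended the call of Egln3 (adjusted p = 0.0661). Genes near 1 CPM, such as Egln3 in controls, rest on few counts.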
